A study of Rattus norvegicus and Ovis aries with 113 samples.

Results

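A set of 9 genes known as markers of the medium spiny neurons of the striatum was followed through the tissues of sheep and rats: DRD1, DRD2, PPP1R1B, ADORA2A, PDE10A, RGS9, TAC1, PENK and SLC35D3. The members were found by upper-cased symbol, and each symbol occurred once among the 31304 genes of the sheep tables and once among the 38675 genes of the rat tables. RNA had been sequenced from both species. The 55 sheep libraries came from 5 post-pubertal rams, named 687, 688, 690, 694 and 699, each of which gave sperm and 10 dissected brain regions: basal ganglia, cerebellum, pons, hippocampus, and entorhinal, frontal, prefrontal, motor, posterior parietal and visual cortex. The 58 rat libraries came from Sprague Dawley rats, with whole brain and sperm (collected as seminal fluid) of 15 post-pubertal males and whole brain and ovary of 14 females. No animal was treated. The labels name basal ganglia, not striatum, and name no cell type, so every value is a mean over the cells of a dissected block or a whole organ.

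Medium spiny neurons are the GABA-releasing projection neurons of the striatum, the input nucleus of the basal ganglia. They fall into a direct pathway class, which carries the dopamine D1 receptor (DRD1) and makes substance P from TAC1, and an indirect pathway class, which carries the dopamine D2 receptor (DRD2) and an adenosine receptor (ADORA2A) and makes enkephalin from PENK. The D1 and adenosine receptors raise cyclic AMP (cAMP) and the D2 receptor lowers it. Both classes hold the machinery that reads and ends these signals: PPP1R1B encodes DARPP-32, a phosphatase inhibitor switched by cAMP-dependent kinase, PDE10A encodes a phosphodiesterase that breaks down cyclic nucleotides, and RGS9 encodes a regulator that shortens G protein signalling. SLC35D3 encodes a member of the nucleotide sugar transporter family that is found in direct pathway neurons.

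The sequences just upstream of 4 members are shown because the members rose together in basal ganglia and several of them act through cAMP, whose response element has CGTCA as its core. RefSeq gave 7 promoter windows for 6 of the 9 rat genes in build GRCr8, and no sheep sequence was used here. The 4 windows that end at the outermost annotated start of their gene are printed 5′ to 3′, each with the 250 bases before the start, and capitals mark CGTCA on either strand. Slc35d3 lies at chr1:16392781-16393030 (minus strand), Pde10a at chr1:54765669-54765918 (minus), Drd2 at chr8:58605153-58605402 (plus) and Rgs9 at chr10:94770388-94770637 (minus).
Slc35d3: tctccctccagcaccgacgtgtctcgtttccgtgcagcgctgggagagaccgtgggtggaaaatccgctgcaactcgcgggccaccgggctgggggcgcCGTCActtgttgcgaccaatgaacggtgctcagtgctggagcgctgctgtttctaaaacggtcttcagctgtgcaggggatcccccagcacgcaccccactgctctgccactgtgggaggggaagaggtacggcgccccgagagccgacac
Pde10a: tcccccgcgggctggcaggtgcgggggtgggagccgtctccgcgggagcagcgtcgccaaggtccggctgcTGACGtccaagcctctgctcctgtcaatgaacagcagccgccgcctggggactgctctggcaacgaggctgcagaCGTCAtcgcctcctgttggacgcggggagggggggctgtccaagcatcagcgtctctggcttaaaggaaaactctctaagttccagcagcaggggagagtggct
Drd2: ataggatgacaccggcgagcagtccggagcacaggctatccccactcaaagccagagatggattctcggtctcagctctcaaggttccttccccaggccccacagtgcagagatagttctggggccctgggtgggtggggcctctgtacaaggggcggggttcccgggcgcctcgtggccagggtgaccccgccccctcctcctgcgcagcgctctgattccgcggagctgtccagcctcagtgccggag
Rgs9: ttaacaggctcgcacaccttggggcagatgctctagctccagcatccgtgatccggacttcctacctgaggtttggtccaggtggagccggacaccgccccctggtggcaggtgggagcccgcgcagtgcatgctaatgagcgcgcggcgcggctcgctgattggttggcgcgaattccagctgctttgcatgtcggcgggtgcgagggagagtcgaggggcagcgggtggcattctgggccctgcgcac
CGTCA or its reverse complement occurred in 3 of the 7 member windows (Slc35d3, Tac1 and 1 of the 2 windows of Pde10a) and in 18.2% of the 33469 rat windows of this length. In Slc35d3 the match began 151 bases before the start, and in Pde10a the 2 matches began 179 and 104 bases before it. The full element TGACGTCA, which contains CGTCA, was in 0 of the 7 windows and in 1.59% of all windows. The GC box GGGCGG on either strand was in 3 of the 7 windows, those of Drd2, Rgs9 and the other Pde10a start, and in 30.5% of all windows. TATAAA was in 0 of the 7 and in 12.9% of all. These matches are letters in a window and were not compared with any measure of binding.

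In the same rat build the genes lay at chr17:10545488-10550029 (Drd1), chr8:58605403-58669339 (Drd2), chr10:83843948-83853063 (Ppp1r1b), chr20:13315270-13332802 (Adora2a), chr1:54313343-54765668 (Pde10a), chr10:94696556-94770387 (Rgs9), chr4:36645344-36653548 (Tac1), chr5:21981381-21987074 (Penk) and chr1:16389308-16392780 (Slc35d3). All 9 are annotated as protein coding. Slc35d3, Pde10a and Rgs9 overlap other annotated genes, and the strand setting of the counting is not given in the sources used here, so reads of the overlaps cannot be assigned with certainty.

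Library totals ran from 46.7 to 72.4 M counts (1 M is 1000000) in sheep brain, 13.7 to 65.1 in sheep sperm, 38.2 to 119 in rat brain, 50.5 to 60.3 in ovary and 13.7 to 65.1 in rat sperm, and no 2 libraries held identical values. Each of the 50 sheep brain libraries was set against its label by its correlation, over 15734 genes, with the mean of the other libraries of every region, after the mean of all libraries was subtracted. The best match was the library's own region in 20 and another region in 30. All 5 libraries of basal ganglia, cerebellum and pons, 3 of 5 of hippocampus and 2 of 5 of posterior parietal cortex matched their own region best, and 0 of 5 of entorhinal, frontal, motor, prefrontal and visual cortex did. In 2 libraries the correlation with their own region was below 0, and the lowest of the other 48 was 0.027. The library labelled motor cortex of sheep 687 had r = -0.16 with motor cortex and 0.60 with hippocampus. The library labelled entorhinal cortex of sheep 688 had r = -0.44 with entorhinal cortex and 0.68 with frontal cortex. The 5 basal ganglia libraries correlated with their own region at 0.70 to 0.86. Of the rat brains, rat 1 and rat 4 carried the ribosomal RNA precursor entry Rn45s at 29.9% and 28.4% of counts. Rats 22, 19 and 9 followed with 18.7%, 12.2% and 11.8%, and every other brain had 8.67% or less. The scaling of levels described below put the effective totals of rats 1, 4 and 22 at 7.17%, 13.0% and 54.3% of their counts. These were the lowest shares among the rat brains. In rats 1 and 4 the totals were scaled down by more than the Rn45s percentages, and the reason was not tested. In the sperm of rats 16 and 17 only 461 genes each had 1 to 10 counts, against 1596 to 8795 in the other 13. Counts of members called are also given without the 2 sheep libraries below 0, and without rats 16 and 17 for sperm. Counts of members called, sex comparisons and correlations are also given without rats 1 and 4.

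All 9 genes were called higher in sheep basal ganglia than in the mean of the other 9 regions, at an adjusted p below 0.05 and a log2 fold change of at least 1 (edgeR's quasi-likelihood test, Benjamini-Hochberg adjustment). Of the 21147 genes tested, 5.54% were called higher in this comparison. The log2 fold changes ran from 3.36 to 8.87 with a median of 5.19, against a median of -0.01 over all genes tested, and the highest adjusted p was 1.77e-15, for PENK. SLC35D3, ADORA2A and DRD2 ranked 3, 10 and 22 by log2 fold change among all genes tested. The genes are markers of the region by choice, so this is a check of the label as much as a result. Levels below are counts per 1000000 counts of a library (CPM), scaled by trimmed mean of M values (TMM) factors within the sheep brain libraries. They are not divided by transcript length and are compared between libraries, never between genes. In such bulk samples fewer cells of a type and less RNA per cell cannot be told apart.

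**Figure D1:**
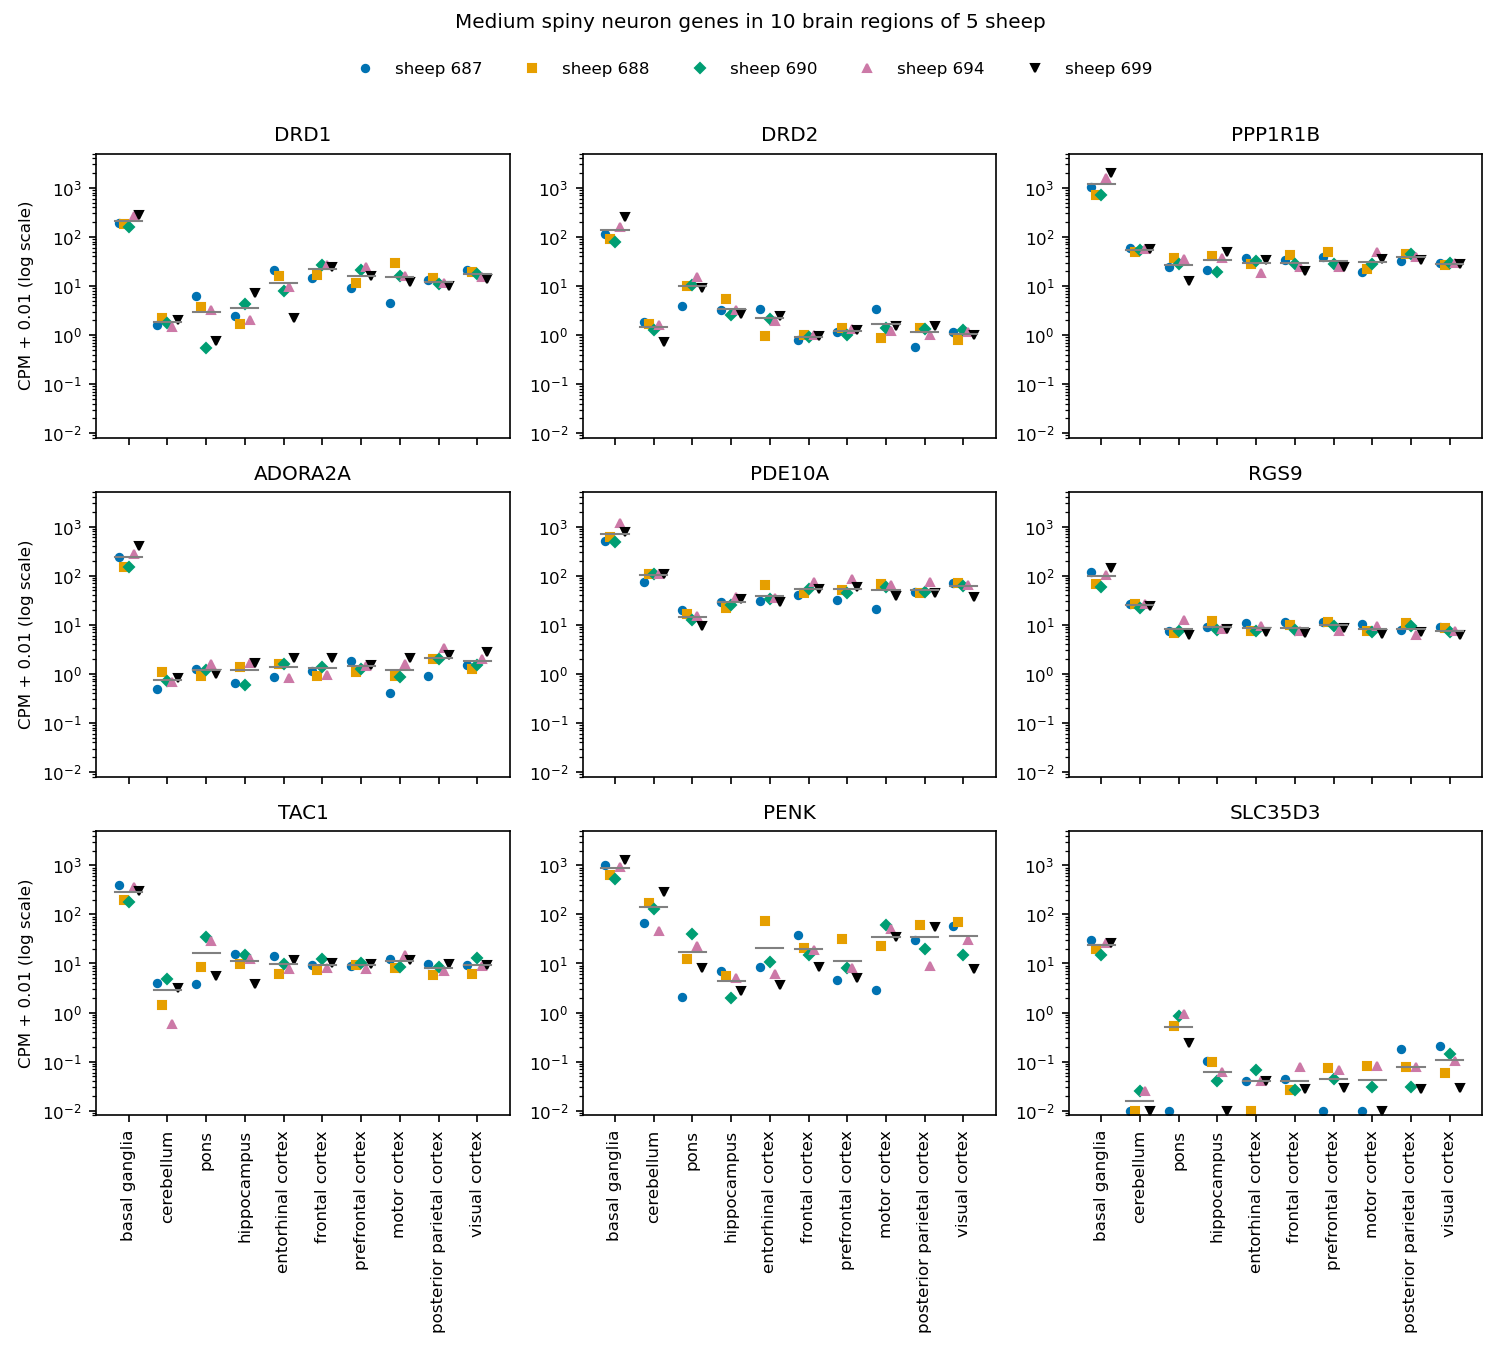
Level of each of the 9 genes (CPM + 0.01, log axis) in the 10 brain regions of 5 sheep. Each symbol is 1 library, with a symbol and colour for each sheep, and grey bars are means. Basal ganglia stand above every other library for all 9 genes.

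Of the receptors, DRD1 stood at 188, 181, 158, 269.5 and 279 CPM in the basal ganglia of sheep 687, 688, 690, 694 and 699. No library of another region passed 28.8 CPM, so the groups did not overlap. Its log2 fold change against the other 9 regions was 4.65 (SE 0.24). Frontal cortex came next with 21.8 CPM ± 5.64 (SD, n = 5), 9.88 times below basal ganglia, and the cortical regions followed without a gap in their ranges. Hippocampus (3.54 CPM ± 2.32), pons (2.90 ± 2.36) and cerebellum (1.79 ± 0.31) came last.

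DRD2, the inhibitory dopamine receptor of the indirect pathway, stood at 117, 89.4, 79.0, 163 and 257 CPM in the same 5 libraries. The highest value elsewhere was 15.1 CPM, in the pons of sheep 694. It exceeded the other 9 regions by a log2 fold change of 6.26 (SE 0.16). The second region was pons, with 9.81 CPM ± 4.02 (SD, n = 5), and the third hippocampus, with 3.43 ± 1.16. Frontal cortex, second for DRD1, was lowest for DRD2, at 0.92 CPM ± 0.088.

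ADORA2A, the adenosine receptor that opposes DRD2 in the same neurons, stood at 239, 148, 150.0, 279.9 and 403 CPM. Outside basal ganglia it was low. The next region, posterior parietal cortex, held 2.14 CPM ± 0.89 (SD, n = 5) and the last, cerebellum, 0.75 ± 0.22. Basal ganglia were 114 times above the second region, the widest such gap of the 9 genes. The log2 fold change against the mean of the other regions was 7.54 (SE 0.17).

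Of the signalling genes, PPP1R1B stood at 1016, 715, 702, 1609 and 2024 CPM. The 2 highest libraries, of sheep 694 and 699, held more than 2 times the lowest. Cerebellum was second with 55.2 CPM ± 4.3 (SD, n = 5), 22.0 times below basal ganglia. Its range lay above posterior parietal cortex, the third, but overlapped hippocampus and prefrontal cortex, which spread more. Against the other 9 regions the log2 fold change was 5.19 (SE 0.15).

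PDE10A stood at 513, 620.1, 486, 1171 and 773 CPM in basal ganglia, highest in sheep 694. Cerebellum was again second, with 101 CPM ± 14.2 (SD, n = 5), and did not overlap visual cortex, the third, although 1 prefrontal library reached 85.7 CPM. Pons was lowest, with 14.6 ± 3.91. PDE10A had a log2 fold change of 3.99 (SE 0.15).

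RGS9 stood at 120.3, 69.1, 57.9, 102 and 142 CPM. It had the smallest gap between the first 2 regions, 3.94 times, since cerebellum held 25.0 CPM ± 1.90 (SD, n = 5). The remaining 8 regions had means between 7.62 and 9.74 CPM and overlapping ranges. RGS9 had the smallest log2 fold change of the 9, 3.36 (SE 0.11).

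Of the peptide precursors, TAC1 stood at 392, 199.8, 182, 364 and 298 CPM in basal ganglia. Pons was second, at 16.0 CPM ± 14.1 (SD, n = 5), and its highest library, of sheep 690, held 34.3 CPM. Cerebellum was lowest with 2.82 ± 1.79. TAC1 had a log2 fold change of 5.00 (SE 0.22).

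PENK stood at 1032, 635, 524, 934 and 1271 CPM. Cerebellum held 65.7, 173, 131, 46.3 and 281 CPM in the same order of sheep, so the lowest basal ganglia library exceeded the highest cerebellar one by less than 2 times. Hippocampus was lowest, at 4.46 CPM ± 2.07 (SD, n = 5). The log2 fold change against the 9 regions was 5.23 with the widest error of the set (SE 0.38).

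SLC35D3 stood at 30.8, 20.0, 14.6, 26.7 and 26.3 CPM in basal ganglia. Outside them it was near the limit of detection, with means of 0.099 CPM or less in all regions but pons, where it held 0.00, 0.52, 0.84, 0.95 and 0.24 CPM in sheep 687, 688, 690, 694 and 699. It had the largest log2 fold change of the 9, 8.87 (SE 0.29), and basal ganglia were 46.7 times above pons. In cerebellum 3 of 5 libraries had a count of 0.

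Against each region taken alone, all 9 genes were again called higher in basal ganglia. The share of all genes called higher was 18.7% against cerebellum, 10.1% against pons, 3.52% against entorhinal, 4.31% against frontal, 3.89% against motor, 4.85% against posterior parietal, 4.94% against prefrontal and 4.5% against visual cortex, and 4.56% against hippocampus. The smallest of these log2 fold changes were those of RGS9 (1.98, SE 0.20), PENK (2.66, SE 0.75, edgeR adjusted p = 2.9e-03) and PDE10A (2.82, SE 0.29) against cerebellum. For DRD1 the closest region was frontal cortex (3.30, SE 0.48), for DRD2, TAC1 and SLC35D3 pons (3.84, 4.16 and 5.53), and for ADORA2A posterior parietal cortex (6.83). Leaving out the 2 libraries that correlated below 0 with their own region kept the count at 9 of 9 in every one of these comparisons.

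The basal ganglia libraries of the 5 sheep differed from each other in a shared way. Sheep 690 had the lowest value for 8 of the 9 genes, and sheep 688 was among the lowest 2 for 8. Sheep 699 had the highest value for 6 genes and sheep 694 was among the highest 2 for 7. The ratio of the highest to the lowest sheep ran from 1.76 for DRD1 to 3.25 for DRD2. Summed over 6 oligodendrocyte genes, the same libraries held 7327, 13839, 21123, 6104 and 8012 CPM in sheep 687, 688, 690, 694 and 699, highest in the sheep with the lowest members. The sum of 6 astrocyte genes was 3926, 7272, 5071, 4544 and 2320 CPM in that order. The sum of 20 other striatal projection neuron genes was 4213, 3556, 3302, 7006 and 6901 CPM, low in sheep 688 and 690 like the members. The part of these cell mixtures in the spread of the members was not tested.

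**Figure D2:**
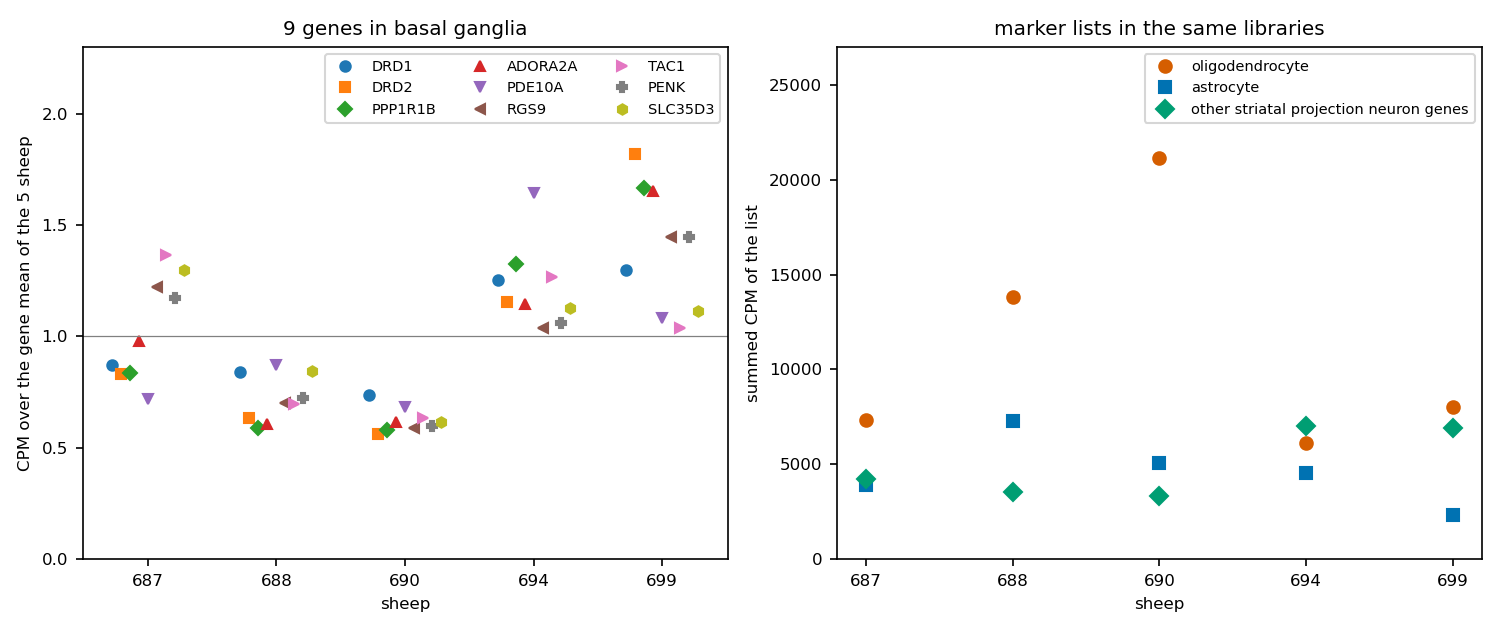
Left, the level of each gene in the basal ganglia of each sheep over that gene's mean of the 5 sheep. Right, the summed CPM of 3 marker lists in the same libraries. Sheep 690 is lowest for 8 of the 9 genes and has the highest oligodendrocyte sum, 21123 CPM.

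A ratio within a library is free of its total. The log2 ratio of DRD2 to DRD1 counts in basal ganglia was -0.68, -1.02, -1.001, -0.73 and -0.12 in sheep 687, 688, 690, 694 and 699, and is comparable between libraries but not as a ratio of molecules, since the transcripts differ in length. Sheep 699 stood highest. The log2 ratio of PENK to TAC1 was 1.40, 1.67, 1.53, 1.36 and 2.09 in the same order, again highest in sheep 699. The log2 ratio of ADORA2A to DRD1 was 0.34, -0.29, -0.08, 0.05 and 0.53. Sheep 699 was highest in all 3 ratios.

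The regions outside basal ganglia were then compared among themselves, each one with the average of the 8 others. In cerebellum 6 of 9 genes were called, where 28.9% of all genes were. PENK (log2 fold change 2.90, SE 0.42), RGS9 (1.56, SE 0.13) and PDE10A (1.31, SE 0.18) rose there, and SLC35D3 (-2.94, SE 0.90), DRD1 (-2.53, SE 0.42) and TAC1 (-1.88, SE 0.37) fell. The fold of SLC35D3 rests on few counts. It had 2 over all cerebellum libraries, 146 in pons and 9 to 28 in each other region compared. PENK and TAC1 went opposite ways in this region. The largest of the 6 adjusted p was 4.7e-03, for SLC35D3 (edgeR). PPP1R1B passed the p threshold but not that of fold (0.83, SE 0.19, edgeR adjusted p = 3.3e-04). ADORA2A did likewise (-0.90, SE 0.29, 6.2e-03).

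In pons 4 of 9 genes were called, where 19.0% of all genes were. SLC35D3 (3.76, SE 0.39) and DRD2 (2.72, SE 0.19) rose, and PDE10A (-1.82, SE 0.24) and DRD1 (-1.76, SE 0.39) fell. DRD2 in pons stood at 3.89, 10.2, 10.6, 15.1 and 9.24 CPM in sheep 687, 688, 690, 694 and 699. The gene of the dopamine transporter (SLC6A3), which with DRD2 marks midbrain dopamine neurons, stood at 0.23, 0.09, 0.20, 0.63 and 19.6 CPM, high in sheep 699 alone, where DRD2 was not highest. Tyrosine hydroxylase (TH), which makes the dopamine precursor, stood at 0.17, 7.501, 0.42, 9.56 and 22.4 CPM. The 6 midbrain dopamine neuron genes summed to 45.0 to 157 CPM in pons, and 4 genes of cholinergic neurons to 2.28 to 304 CPM. The 6 brainstem genes summed to 14.9, 56.5, 47.6, 18.7 and 2.42 CPM in sheep 687, 688, 690, 694 and 699. Sheep 699, lowest in that sum, had the highest dopamine neuron sum, and its library correlated with pons at 0.84. SLC6A3 and TH were singled out after their values were seen, and the part of these cells in the pontine values was not tested. TAC1 passed the p threshold in pons but not that of fold (0.95, SE 0.28, edgeR adjusted p = 5.0e-03), and PENK passed neither (-0.52, SE 0.56). TAC1 stood at 3.74, 8.40, 34.3, 28.1 and 5.62 CPM and PENK at 2.09, 12.3, 39.95, 22.6 and 7.96 CPM, both highest in sheep 690 and then 694.

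In hippocampus 3 of 9 genes were called, where 4.91% of all genes were. PENK (-2.69, SE 0.67) and DRD1 (-1.43, SE 0.38) fell and DRD2 (1.01, SE 0.22) rose. PDE10A passed the p threshold but not that of fold (-0.69, SE 0.21, edgeR adjusted p = 0.027). DRD2 stood at 3.19, 5.42, 2.54, 3.30 and 2.71 CPM there, and its call rested on sheep 688: without that sheep the log2 fold change was 0.76 with an edgeR adjusted p of 0.053. The call of DRD1 was also lost without sheep 688 (-1.18, edgeR adjusted p = 0.099) and without sheep 694 (-1.26, 0.090).

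In the neocortex the calls were those of DRD1 and 1 of DRD2. DRD1 rose in frontal (1.52, SE 0.29), visual (1.17, SE 0.30) and prefrontal cortex (1.05, SE 0.30), and in frontal cortex DRD2 fell (-1.12, SE 0.28). In frontal cortex 2 of 9 genes were called, where 2.6% of all genes were. Prefrontal and visual cortex had 1 of 9 each, where 2.33% and 2.0% of all genes were called. In entorhinal, motor and posterior parietal cortex edgeR called 0 of 9, where 2.47%, 1.51% and 2.54% of all genes were called (3342, 4393 and 5247 of 21147 genes had an unadjusted p below 0.05). ADORA2A in posterior parietal cortex passed the p threshold but not that of fold (0.79, SE 0.24, edgeR adjusted p = 0.028). DRD2 in visual cortex did likewise (-0.89, SE 0.27, 0.043). Without the 2 libraries that correlated below 0 with their own region, PENK fell in entorhinal cortex (-1.77, SE 0.58, edgeR adjusted p = 0.043) and DRD1 rose in motor cortex (1.21, SE 0.31, adjusted p = 0.012), with the counts of the other 7 regions as before. The DRD2 call of frontal cortex was lost without sheep 690 (-1.13, edgeR adjusted p = 0.055). The DRD1 calls of prefrontal and visual cortex were each lost when sheep 690 was left out (edgeR adjusted p = 0.17 and 0.069), and also without sheep 694 in prefrontal (0.26) and without sheep 688 in visual cortex (0.052).

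**Figure D3:**
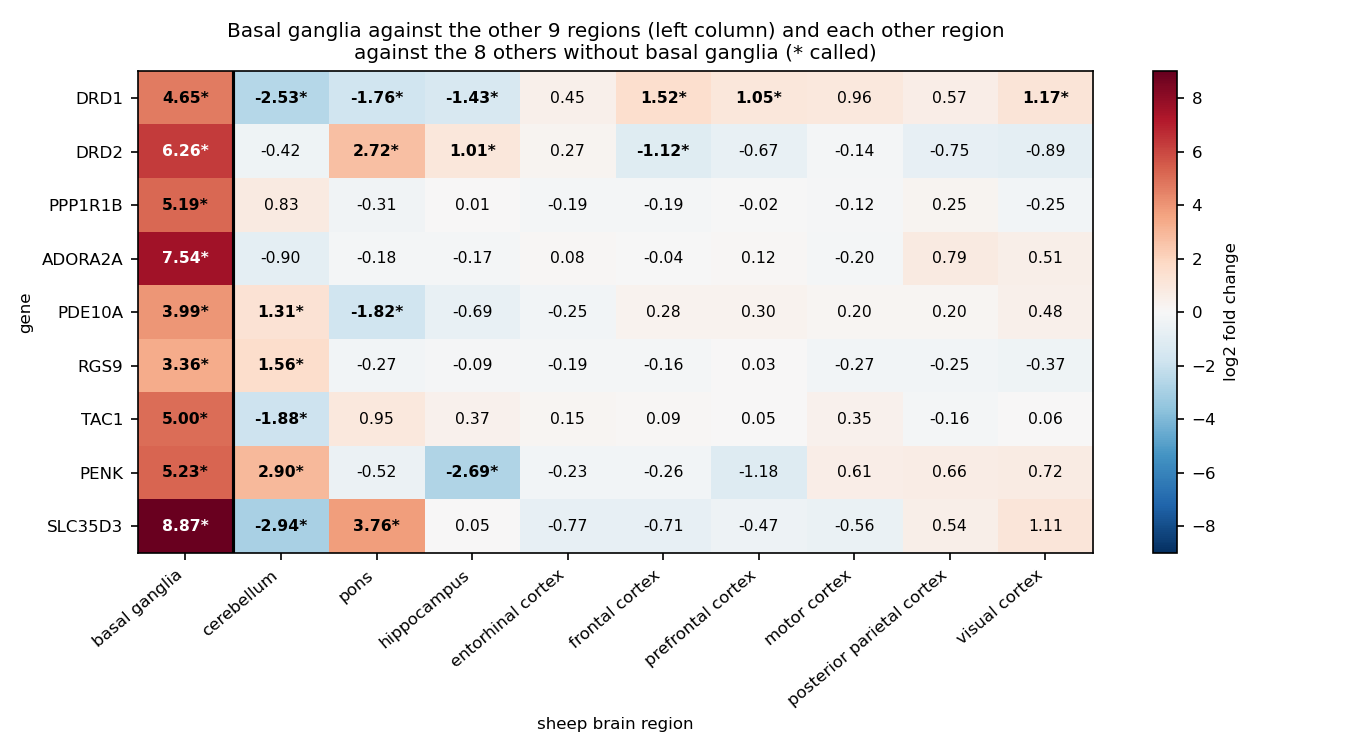
log2 fold change of each gene (rows) in basal ganglia against the other 9 regions (left column) and in each other region against the 8 others without basal ganglia. Asterisks and bold type mark called values, 9 of 9 for basal ganglia, 6 for cerebellum and 4 for pons.

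The cortical values show where the sheep differed. PENK in entorhinal cortex stood at 8.30, 72.8, 10.5, 6.16 and 3.71 CPM in sheep 687, 688, 690, 694 and 699. The high library, of sheep 688, is the one that resembled frontal cortex, and without it the mean was 7.17 CPM ± 2.92 (SD, n = 4) in place of 20.3 ± 29.5 (SD, n = 5). Its PENK level also lay above the highest frontal cortex library, at 37.3 CPM. In motor cortex DRD1 stood at 4.43, 28.8, 15.7, 16.2 and 11.9 CPM and PENK at 2.91, 22.2, 60.5, 50.3 and 33.9 CPM. The low library, of sheep 687, is the one that resembled hippocampus, and without it DRD1 averaged 18.1 CPM ± 7.35 (SD, n = 4). PENK also spread widely in visual and posterior parietal cortex. It stood at 59.2, 69.1, 15.1, 30.4 and 7.69 CPM in visual cortex and at 29.4, 61.3, 19.4, 8.73 and 56.4 CPM in posterior parietal cortex, and no 1 sheep was highest in all regions.

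Other genes of these neurons and their pathway rose with the members in basal ganglia, by lists chosen with earlier results of these data known. Of 20 other striatal projection neuron genes 17 were called higher and 0 lower, with a median log2 fold change of 2.89. They included SIX3 (8.80), a transcription factor of striatal development, SYNDIG1L (5.49) and the retinoid receptor RXRG (4.62). Among 7 direct pathway genes, 3 of them members, 6 were called higher, with PDYN, the precursor of dynorphin, at 4.83 and the transcription factor ISL1 at 6.89. Among 6 indirect pathway genes, 3 of them members, all 6 were called higher, the largest non-member being the receptor GPR6 (6.97).

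Of 10 dopamine and cAMP signalling genes 5 were called higher and 0 lower, led by GNAL (4.46), the stimulatory G protein of striatum, PDE1B (3.75), GNG7 (3.60) and ADCY5 (2.81), the main striatal adenylyl cyclase. GNB5, the partner that stabilises RGS9, and RGS7BP, which anchors such complexes at the membrane, were not called (0.82 and 0.18), and were picked out after their values were seen. The other dopamine receptors differed from each other, with DRD3 higher (6.98), DRD5 lower (-1.75) and DRD4 not called (0.46). Of 6 receptors for the peptides made from TAC1, PENK and PDYN, 4 were called higher: OPRM1 (3.21), OPRK1 (2.92), TACR1 (2.22) and OPRD1 (1.30). OPRM1 is also in the list of other striatal projection neuron genes. Of the 4 peptide processing genes tested 0 were higher and 1 lower, the prohormone convertase PCSK1 (-3.98).

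Markers of other cells were measured in the same comparison, in which 2176 of 21147 genes were called in either direction, 1172 of them higher. The 4 cholinergic interneuron genes were all called higher, with SLC5A7 at 7.67 and CHAT at 5.81. Of 4 pallidal and ventral forebrain genes 3 were higher, including NKX2-1 (4.52). LHX8 is in both of these lists and is counted as higher in each, so the counts are not separate. All 6 cortical glutamatergic genes were lower (median -4.96), and 0 of 6 oligodendrocyte, 0 of 6 astrocyte, 0 of 6 microglia and 0 of 5 thalamus genes were called. SLC17A7, the cortical vesicular glutamate transporter, stood at 3.26, 29.4, 9.18, 1.96 and 2.88 CPM in the 5 basal ganglia libraries, highest in sheep 688, and was picked out after its values were seen.

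The genes most like the members in pattern were ranked over the 50 sheep brain libraries by Pearson correlation of log2(CPM + 1) with the mean z-score of the members, among 13060 other genes of at least 1 CPM in basal ganglia. The top 5 were SFN (r = 0.98), GPR6 (0.97), SLC5A12 (0.97), DTD1 (0.96) and DRD3 (0.96), followed by PRLHR, LHX8, ZNF239, ANGPTL6 and CLRN1 (0.95 to 0.94). The values rest largely on the contrast of 5 basal ganglia libraries with the other 45 and share their library depths, so they describe and carry no p. SFN, the 14-3-3 sigma protein, averaged 19.2 CPM ± 9.90 (SD, n = 5) in basal ganglia and 0.13 CPM in the next region. Correlated in the same way with the mean of the other 8, the members themselves ranged from 0.72 for DRD1 and 0.76 for PENK to 0.97 for ADORA2A and SLC35D3.

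In rats the brain was taken whole, so no region could be separated. The lowest, median and highest levels over the 15 male brains were 11.7, 27.6 and 55.6 CPM for Drd1, and over the 14 female brains 14.4, 21.3 and 39.4 CPM. For Drd2 they were 8.29, 14.4 and 38.5 CPM in males and 8.97, 16.2 and 25.8 CPM in females. For Adora2a they were 11.0, 24.0 and 71.7 CPM in males and 11.2, 22.2 and 41.5 CPM in females. The ranges of the sexes overlapped for each receptor. Without rats 1 and 4 the lowest male levels were 13.2 CPM for Drd1 and 10.6 CPM for Drd2.

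Of the signalling genes, Ppp1r1b had a lowest, median and highest level of 135, 218 and 563 CPM in males and 121, 199 and 279 CPM in females. Pde10a had 41.6, 78.4 and 173 CPM in males and 40.8, 91.4 and 146 CPM in females. Rgs9 had 19.8, 35.3 and 90.3 CPM in males and 18.7, 33.3 and 50.9 CPM in females. For all 3 the highest brain was a male one. Without rats 1 and 4 the lowest levels were 154 CPM for Ppp1r1b in females and 52.4 CPM for Pde10a in males. Of the peptide precursors, Tac1 had 18.4, 28.2 and 73.8 CPM in males and 16.4, 34.7 and 58.4 CPM in females. Penk had 93.3, 137 and 364 CPM in males and 79.97, 149 and 233 CPM in females. Slc35d3 had 4.92, 7.45 and 12.2 CPM in males and 5.14, 7.27 and 11.4 CPM in females, the narrowest spread of the 9.

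None of the 9 was called between female and male brain at an adjusted p below 0.05, where 0.18% of 20570 genes were called (37 genes, edgeR). The members' log2 fold changes, female over male, ran from -0.27 for Ppp1r1b to 0.06 for Pde10a, with SEs of 0.13 to 0.24 and adjusted p of at least 0.66. Over all genes 2034 had an unadjusted p below 0.05, and DESeq2 called 153 genes, with 0 of 9 members. Without rats 1 and 4 edgeR called 74 genes, again with 0 of 9. The log2 ratio of Drd2 to Drd1 counts was -0.59 ± 0.15 (SD, n = 14) in females and -0.64 ± 0.20 (SD, n = 15) in males, and that of Penk to Tac1 2.18 ± 0.24 and 2.19 ± 0.27. The differences, 0.05 and -0.02, did not pass the threshold (two-sided permutation tests with 100000 resamples, p = 0.42 and 0.86, adjusted over the 2 ratios 0.85 and 0.86).

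The same few brains were high for most members. The brain of rat 5, a male, was highest for 8 of the 9 genes, and rats 8 and 29 were among the top 5 of the 29 brains for 8 genes each. Rat 7, highest for Pde10a, was among the top 5 for 7 genes. The brain of rat 19 was among the lowest 5 for all 9, that of rat 17 for 7 and those of rats 1 and 12 for 6 each. Rn45s made up 12.2%, 0.85%, 29.9% and 1.08% of counts in rats 19, 17, 1 and 12. Brain 5 also had the highest sum of the other striatal projection neuron genes, 2309 CPM against 1083 to 1995 CPM in the other 28, and the lowest sum of 5 cerebellar neuron genes, 151 CPM against 264 to 857 CPM. The part of dissection, of tissue recovered or of Rn45s content in these differences was not tested.

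Across the 29 brains the members varied together. Of the 36 pairs of members, 35 correlated past the adjusted threshold (permutation tests of log2(CPM + 1) with 100000 resamples, Benjamini-Hochberg over 36 pairs), with a median Pearson r of 0.82 and a median Spearman rho of 0.79. The smallest r that passed was 0.46. Over all 126731160 pairs of the 15921 genes of at least 1 CPM in these brains the median r was -0.0026, 13.8% of pairs had an r of at least 0.46, and 1.21% had one of at least the members' median. The strongest were Ppp1r1b with Rgs9 (r = 0.96, rho = 0.93) and Drd1 with Drd2 (r = 0.95, rho = 0.96), both with an adjusted permutation p of 1e-05 for r, the smallest these resamples can give. Drd2 with Adora2a gave r = 0.94. Tac1 and Penk, peptide precursors of opposite pathways, gave r = 0.89. Pde10a was the loosest member, and its pair with Tac1 gave r = 0.24 and rho = 0.25 (permutation p = 0.21 for r). Within males the 36 values of r ran from 0.31 to 0.96 and within females from 0.14 to 0.96. Without the 2 libraries farthest from the median of the first gene of the pair, the median r was 0.75, and without rats 1 and 4 it was 0.87 with 35 pairs past the threshold. With plain library totals in place of TMM scaling the members' median r was 0.96, and that of all pairs of genes was 0.92, with 98.8% of them at 0.46 or above. All members are measured in the same library, so any error in its scaling is shared by both genes of a pair.

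**Figure D4:**
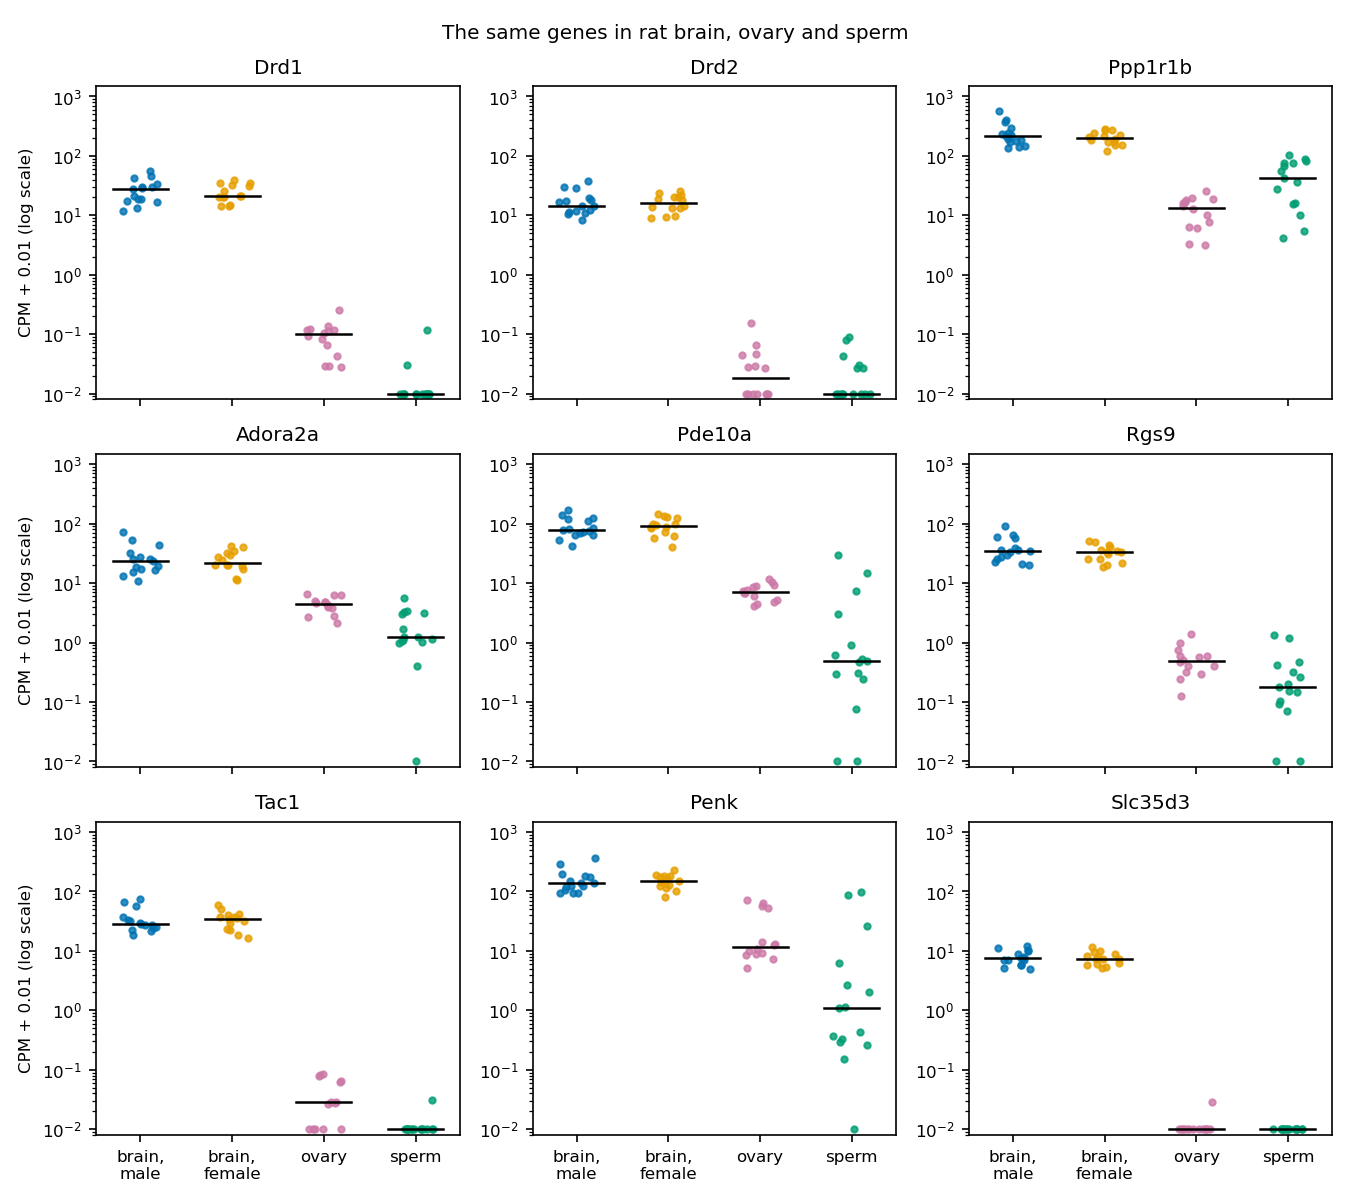
Level of each gene (CPM + 0.01, log axis) in 15 male and 14 female rat brains, 14 ovaries and 15 sperm libraries, scaled within brain, ovary and sperm separately. Points are libraries and black bars are medians. Slc35d3 is at 0 counts in all 15 sperm libraries and in 13 of 14 ovaries.

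In the reproductive samples most members were close to absent. In sheep sperm DRD1 and SLC35D3 had 0 counts in all 5 libraries. Against the pooled brain libraries, on plain CPM, DRD1 was at least 1917-fold lower and SLC35D3 at least 138-fold lower, with 3 counts over the group as the floor. TAC1 had 5 counts in 1 library (sheep 687) and PENK 14 counts in 1 library (sheep 688). DRD2 had 11 counts in 3 libraries, and PPP1R1B and PDE10A had 23 counts each in 4. Pooled brain CPM exceeded pooled sperm CPM 255-fold for DRD2, 1155-fold for PPP1R1B and 948-fold for PDE10A, with exact 95% intervals, which cover counting error only, of 143 to 511, 770 to 1822 and 632 to 1496.

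RGS9 and ADORA2A were the members with a measurable sperm level in sheep. RGS9 stood at 0.42, 1.40, 0.28, 1.17 and 0.00 CPM in sheep 687, 688, 690, 694 and 699, scaled within sperm. ADORA2A stood at 0.16, 0.43, 1.06, 1.52 and 0.18 CPM, above 0 in every library. By pooled CPM, brain exceeded sperm 22.5-fold for RGS9 (95% interval 19.3 to 26.5) and 35.7-fold for ADORA2A (29.8 to 43.1), with basal ganglia included.

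In the fit over all 55 sheep libraries 7 of the 9 members were called lower in sperm than in the mean of the 10 regions, where 41.1% of 21859 genes were called lower. The mean is over logs of the regions, so basal ganglia count for 1 region in 10. The median log2 fold change was -6.16 for the members (the same with the 2 genes at 0 counts set at their bounds over the 10 regions) and -0.42 for all genes. PENK (-6.50, SE 1.00), PDE10A (-6.46, SE 0.42), TAC1 (-6.41, SE 0.69), PPP1R1B (-6.16, SE 0.41), DRD2 (-3.16, SE 0.47) and RGS9 (-1.59, SE 0.32) were called with DRD1, and the largest adjusted p was 1.1e-05 (edgeR). SLC35D3 was not called (edgeR adjusted p = 0.068), and outside basal ganglia its counts in brain were also near 0. ADORA2A was 0.69 higher (SE 0.32, edgeR adjusted p = 0.041) and missed the fold threshold. The scaling matters here: the median of all genes moved to -0.17 with RLE factors, 0.31 with upper quartile factors and 1.05 in DESeq2. With upper quartile factors ADORA2A was called higher (1.44) and RGS9 missed the fold threshold (-0.94), and the split of all calls turned from 7239 higher and 8976 lower to 8907 and 6980. Without sheep 699 ADORA2A was called higher too (1.07), and without sheep 687 SLC35D3 was called lower (edgeR adjusted p = 0.047).

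In rat sperm all 9 members were called lower than in male brain, where 31.5% of 20480 genes were called lower (edgeR). The median log2 fold change was -6.96 for the members, also with Slc35d3 at its bound, and -0.03 for all genes. Slc35d3 had 0 counts in 15 libraries, at least 2200.3-fold below brain with 3 counts over the group as the floor. Tac1 had 1 count in all, 29478-fold below brain by pooled CPM with a 95% interval of 5290.4 to 1164370 for counting error. Drd1 had 6 counts in 2 libraries and Drd2 12 counts in 6. Rgs9 and Adora2a had 235 and 1388 counts, with medians of 0.17 and 1.23 CPM and fitted log2 fold changes of -6.96 (SE 0.49) and -3.77 (SE 0.45).

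The least reduced member in rat sperm was Ppp1r1b, at -2.26 (SE 0.39). Its lowest, median and highest levels were 4.21, 42.2 and 102 CPM over the 15 libraries. Brain and sperm levels are scaled separately, and on those scales the lowest male brain was at 135 CPM. Penk followed at -3.66 (SE 0.84), then Adora2a at -3.77 (SE 0.45) and Pde10a at -4.74 (SE 0.75). Penk had a lowest, median and highest level of 0.00, 1.08 and 97.7 CPM and Pde10a of 0.00, 0.49 and 29.3 CPM. On the same separate scales the highest Penk level, in the sperm of rat 14, lay above the lowest male brain, at 93.3 CPM. The highest Pde10a level lay below the lowest male brain, at 41.6 CPM. The highest 4 libraries were the same for both genes, those of rats 14, 7, 3 and 13.

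In 3 of those 4 libraries the transcripts of late spermatids were the highest of the 15. Penk stood at 97.7, 87.7, 26.1 and 6.21 CPM and Pde10a at 29.3, 14.7, 7.30 and 3.05 CPM in rats 14, 7, 3 and 13, and the other 11 libraries were at or below 2.67 and 0.90 CPM. The 12 late spermatid and sperm genes summed to 42476, 33916, 10388 and 2994 CPM in those 4 libraries and to 320.3 to 7951 CPM in the other 11. Tnp1, a transition protein that packs spermatid chromatin, stood at 6581, 4108, 941 and 363 CPM in all 4 and at or below 46.0 CPM in the other 11. The library of rat 10 had a late spermatid sum of 7951 CPM with Tnp1 at 7.14, Penk at 0.33 and Pde10a at 0.29 CPM. Ppp1r1b did not follow: it stood at 16.0, 4.21, 5.54 and 76.5 CPM in rats 14, 7, 3 and 13, and the lowest of the 15 libraries was that of rat 7. Genes that mark cortical neurons, oligodendrocytes and astrocytes were at sums of at most 20.3, 70.4 and 28.4 CPM in any sperm library. Other lists of brain cell types were not low. The microglia list summed to 42.5 to 910 CPM in sperm, the midbrain dopamine neuron list to 95.7 to 957 CPM, the thalamus list to 91.1 to 487 CPM and the brainstem list to 81.1 to 292 CPM. The part of these cell types in the sperm values was not tested. These libraries and Tnp1 were picked out after their values were seen, and the part of spermatid RNA in the Penk and Pde10a values was not tested. Without rats 16 and 17, and without rats 1 and 4, all 9 members were again called lower. Without rats 1 and 4 the pooled brain levels behind the folds were 1.13 to 1.14 times as high for sperm and 1.14 to 1.15 times for ovary.

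**Figure D5:**
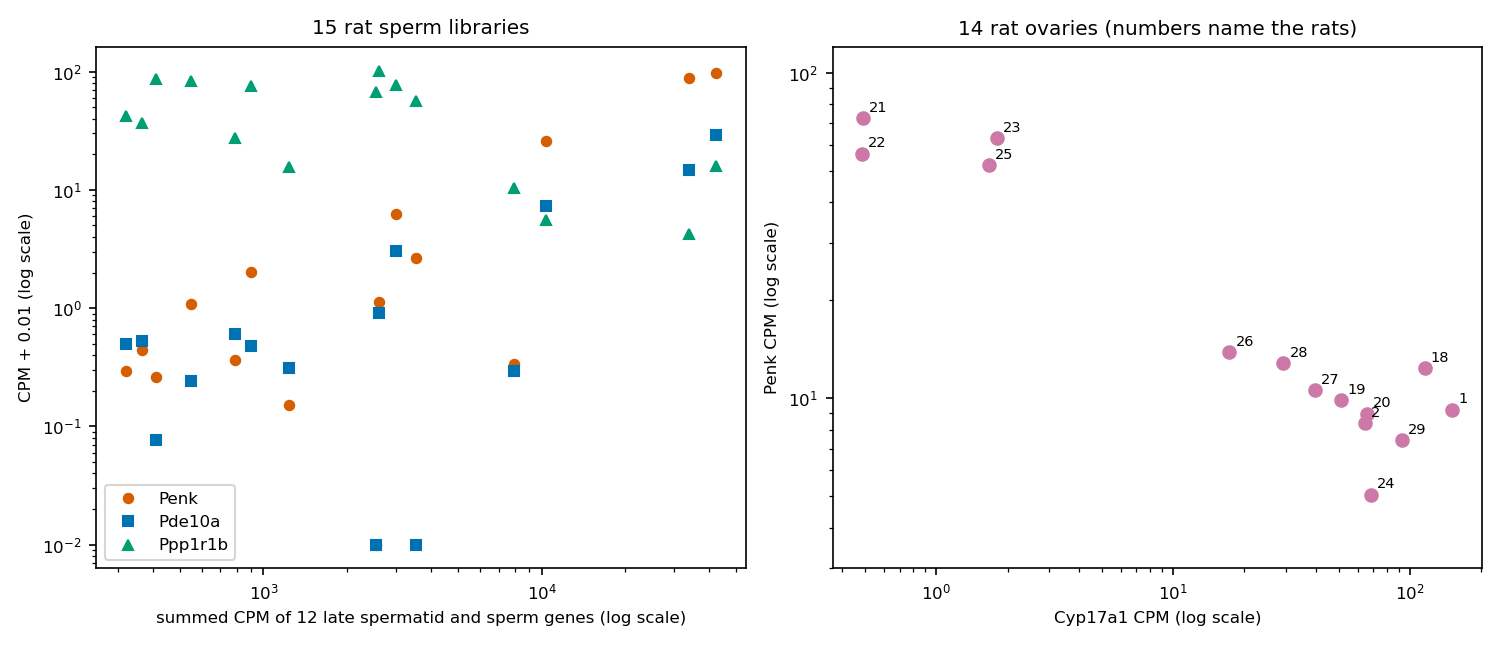
Left, Penk, Pde10a and Ppp1r1b (CPM + 0.01, log axis) against the summed CPM of 12 late spermatid and sperm genes (log axis) in 15 rat sperm libraries. Right, Penk against Cyp17a1 (both CPM, log axes) in 14 rat ovaries, where the 4 ovaries with Penk above 50 CPM have Cyp17a1 at or below 1.80 CPM.

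In rat ovary all 9 members were called lower than in female brain, where 29.2% of 20801 genes were called lower (edgeR). The median log2 fold change was -6.28 for the members and 0.02 for all genes. Slc35d3 had 1 count in 14 libraries, with brain 5523-fold above by pooled CPM (95% interval 991 to 218178 for counting error). Drd1, Drd2 and Tac1 had 67, 18 and 22 counts in all. Rgs9 was low, with a lowest, median and highest level of 0.12, 0.48 and 1.38 CPM and a log2 fold change of -6.28 (SE 0.26).

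The other 4 members had ovarian levels of several CPM. Adora2a was the least reduced (-2.85, SE 0.20), with a lowest, median and highest level of 2.13, 4.40 and 6.53 CPM. Pde10a ranged narrowly from 4.07 to 11.8 CPM around a median of 7.17 (-4.02, SE 0.20). Ppp1r1b ranged from 3.10 to 25.9 CPM around 13.4 (-4.35, SE 0.28). None of the 3 reached the lowest female brain, on levels scaled separately for ovary and brain.

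Penk was the variable member in ovary (-2.96, SE 0.38). It stood at 72.7, 56.5, 62.9 and 51.9 CPM in rats 21, 22, 23 and 25 and at 5.06 to 13.9 CPM in the other 10, with no value between. The lowest female brain, scaled separately, was at 79.97 CPM. The same 4 ovaries had Cyp17a1, the androgen-making enzyme of theca cells, at 0.49, 0.49, 1.80 and 1.67 CPM, against 17.3 to 151 CPM in the other 10. They also had the 4 lowest levels of the luteinising hormone receptor gene Lhcgr, 36.9, 111, 120.1 and 67.4 CPM, against 262 to 1047 CPM in the other 10. The sum of all 8 granulosa and theca genes was 2249, 2512, 4069 and 4426 CPM in the 4 and 3255 to 6145 CPM in the other 10, so the whole list overlapped. Cyp17a1 and Lhcgr were singled out after their values were seen, no label gives the cycle stage of the females, and the part of cycle stage or cell mixture was not tested. None of the other 8 members set these 4 ovaries apart.

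The kits for RNA extraction and libraries differed between sheep and rats, so species and preparation cannot be told apart, and the values of the species are given side by side with no test. DRD1, TAC1 and SLC35D3 were at or near 0 counts in the sperm of both species. Pooled sperm CPM of PPP1R1B was 0.11 in sheep and 47.4 in rat, while pooled brain CPM was 130 and 275 (males). Pooled sperm CPM of PENK was 0.07 in sheep, from a single library, and 13.4 in rat. For ADORA2A the pooled sperm CPM was 0.59 in sheep and 1.88 in rat.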

How the data were processed

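RNA sequencing of sheep brain regions and sperm and of rat brain, ovary and sperm was deposited as raw read counts per gene, not normalized, which the authors made by trimming with Trimmomatic 0.39, alignment with STAR 2.7.5a to ARS-UI_Ramb_v3.0 (sheep) or GRCr8 (rat) and counting with Rsubread 2.20.0, per the labels' series text. The strand setting and the treatment of reads that map to several places are not stated in the labels or headers. Every per-sample column was used (0 were left out). Samples were grouped by species, tissue, region and sex from their titles. The labels name separate animals. The 9 members and all gene lists were chosen with earlier results of these data known.

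The test on the counts was that of edgeR 4.0.16 under R 4.3.3 (TMM factors, filterByExpr, quasi-likelihood test, Benjamini-Hochberg adjustment over all genes tested, prior count 0.125). Calls needed an adjusted p under 0.05 together with a log2 fold change of 1 or more in size, except between rat sexes, where the p alone decided. Levels are CPM scaled by TMM within sheep brain, sheep sperm, rat brain, ovary and rat sperm separately. Fold floors used 3 counts over the group, and 95% intervals are exact and cover counting error only. Log ratios of counts had 1 added to each count, and correlations used log2(CPM + 1). Alternatives were RLE and upper quartile factors, no low-count filter, DESeq2 1.42.0, a replicate block, leaving out each sheep, and libraries that stood apart, the last chosen after seeing the data except for rat sperm. The edgeR test was tried on simulated counts under its main settings, for the first comparison of each fit.

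Sheep regions of the same number come from the same animal, and the deviations of basal ganglia correlated with those of the same animal's other regions at 0.16 to 0.46. The main fits had no term for the animal, so their SEs and p treat the libraries of 1 sheep as independent. The replicate block was run as an alternative only. All 9 members were named. Of each other list the text names at most the 4 called genes with the largest absolute log2 fold change, and the 10 genes most like the members in pattern. 1 listed gene is not reported here by name. Exceptions are said to have been picked out after their values were seen. No sheep sequence or position was used here.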

Additional observations from a re-analysis of the deposited data

Results flagged for a closer look

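In groups of 5 sheep, a value was picked out when its gap to the nearest other value exceeded 0.71 of the group's range. Of 97 groups of a gene and tissue, 11 held such a value. The cut flags about 1 in 20 groups by chance when the 5 values are independent and normally distributed. The CPM were not tested for that and some flagged values share a library, so the count is not read as an excess over chance. DRD2 stood at 5.42 CPM in the hippocampus of sheep 688, against 2.54 to 3.30 CPM in the other 4, and RGS9 at 12.1 CPM in the same library. PENK stood at 30.8 CPM in the prefrontal cortex of that sheep. In the library labelled entorhinal cortex of sheep 688, which resembled frontal cortex, PENK stood at 72.8 CPM and PDE10A at 64.8 CPM. In the library labelled motor cortex of sheep 687, which resembled hippocampus, DRD2 stood at 3.39 CPM. PDE10A was low in the cerebellum of sheep 687, at 75.7 CPM, where the other 4 held 106 to 109 CPM. It was high in the posterior parietal cortex of sheep 694, at 73.0 CPM. RGS9 was high in the pons of sheep 694, at 12.5 CPM. In sperm, TAC1 stood at 0.163 CPM in sheep 687 and PENK at 0.202 CPM in sheep 688, and the other 4 libraries of each had 0 counts. In such a group any single value above 0 is picked out by the rule.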

How the results depend on the processing

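The count of members called in basal ganglia against the other 9 regions (9), in rat sperm (9), in ovary (9) and between rat sexes (0) was the same under every alternative run. With the replicate block, sheep sperm kept 7 members lower and basal ganglia 9 higher, with 2236 genes called in place of 2176, and the block changed no count of members called. Rat brains and sperm or ovaries of the same number deviated together only weakly, so for rats the block follows a number alone. Leaving out 1 sheep at a time gave 1 to 2 members called in frontal cortex, 1 to 3 in hippocampus, 0 to 1 in motor, 0 to 1 in prefrontal and 0 to 1 in visual cortex. The changes came without sheep 690 in frontal, 688 (1 member) or 694 (2 members) in hippocampus, 687 in motor, 690 or 694 in prefrontal and 688 or 690 in visual cortex. Without the 2 libraries that correlated below 0 with their own region, entorhinal and motor cortex had 1 member each. Genes called in rat sperm numbered 12111, 22067 with no low-count filter and 18371 with DESeq2. In ovary they numbered 11832, and 18799 with no filter. Between sexes they numbered 37, 153 with DESeq2 and 74 without rats 1 and 4, where the difference in the log2 ratio of Penk to Tac1 turned from -0.02 to 0.0052 (adjusted permutation p = 0.96). The cause of these shifts was not tested. Depth limits 7 of 9 members in sheep sperm, with 0 to 23 counts each over all libraries, 4 in rat sperm (0 to 12) and 3 in ovary (1 to 22).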
